A study of Mus musculus with 8 samples.

Results

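The genes described here are 10 genes of the cellular response to low oxygen that lie outside glycolysis: Bnip3, Ankrd37, Vegfa, P4ha1, P4ha2, Egln1, Egln3, Ak4, Ero1a and Fam162a. They were taken by symbol, and all 10 were measured, among 18193 genes in all. Between them they have 21 probe sets with a single gene symbol, of 45101 probe sets on the array. The list was chosen on the differences of their log2 values between the groups of these arrays, so the differences below are a description; whether a gene passed the threshold is given for orientation and supports nothing.

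Total RNA of mouse embryonic stem cells (ESCs) was hybridised to 8 Affymetrix arrays. All cells grew on gelatine with LIF and the 2i inhibitors PD0325901 (1 μM), which blocks MEK, and CHIR99021 (3 μM), which blocks GSK3; neither feeder cells nor serum were present. The DMSO group (3 arrays) received the solvent for 60 h, and the MYCi group (2 arrays) received 64 μM of 10058-F4, a small molecule that disturbs the pairing of MYC with MAX, for 60 h. The Resc group (3 arrays), called released cells below, had 60 h of 10058-F4 at that dose and then 48 h of 2i medium free of it. Released cells were thus 48 h longer in culture than DMSO cells, so withdrawal and time in culture cannot be told apart. Whether replicate arrays stand for independent cultures is not given in the labels, and the p-values cover the spread between arrays, which may be technical.

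In well-oxygenated cells the EGLN prolyl hydroxylases mark the HIF alpha subunits, using oxygen as a substrate, and the VHL ubiquitin ligase then has them destroyed. When oxygen is low, the alpha subunits persist, pair with ARNT and bind the hypoxia response element. Their targets act in oxygen delivery, glycolysis, mitochondrial turnover and matrix production. HIF alpha subunits are controlled largely as proteins, which expression arrays do not measure.

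The core of the hypoxia response element is ACGTG or the form that begins with GC (GCGTG). All 10 genes have promoter entries in RefSeq (GRCm38.p6), each reaching from 250 bases before to 50 bases after a transcription start. On either strand, 13 of their 14 entries and all 10 genes held a core of either form, against 43.8% of all 32851 entries and 46.7% of all genes. Ak4 gave 4 of the 14 entries. Its entries 1, 2 and 3 overlap and share the same 2 matches, so the 14 entries are not 14 separate stretches. Such a core also stood in 16 of 18 glycolytic low-oxygen targets with entries (88.9%) and 22 of 24 other low-oxygen targets (91.7%). ACGTG alone stood in all 10 genes (21.8% of all genes) and GCGTG in 9 (35.2%). The entries of the 10 genes held a median of 28 CG dinucleotides, against 7 over all entries, and both forms contain CG. MYC with MAX binds the E-box, CACGTG, which holds the first form on both strands. The E-box stood in entries of Bnip3 and Ak4, 2 of the 10 genes (8.09% of all genes). Leaving out matches inside it left the count of genes with either form at 10. The only ACGTG matches of Bnip3 and Ak4 lay inside the E-box. The 2 Vegfa entries lie on the minus strand. That at chr17:46032328-46032627 held no match. The other, further downstream at chr17:46025114-46025413, held 1 ACGTG and 1 GCGTG. Vegfa counts among the 10 genes, and among the genes with each form, through that entry alone. Whether that stretch acts as a promoter was not tested. The 250 bases before the start are printed 5′ to 3′ for 4 genes whose levels took different courses: Bnip3 was high with the inhibitor and after withdrawal, Ero1a was high with the inhibitor alone, Ankrd37 was low with the inhibitor and high after withdrawal, and Fam162a was high after withdrawal. Capitals mark a core on either strand and the E-box.
Bnip3, chr7:138909507-138909756, minus strand: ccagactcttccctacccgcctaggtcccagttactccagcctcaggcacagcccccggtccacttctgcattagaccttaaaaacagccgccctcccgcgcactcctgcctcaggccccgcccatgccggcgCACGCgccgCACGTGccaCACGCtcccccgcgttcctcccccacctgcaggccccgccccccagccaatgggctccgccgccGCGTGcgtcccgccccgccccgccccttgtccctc
Ero1a, chr14:45318573-45318822, minus strand: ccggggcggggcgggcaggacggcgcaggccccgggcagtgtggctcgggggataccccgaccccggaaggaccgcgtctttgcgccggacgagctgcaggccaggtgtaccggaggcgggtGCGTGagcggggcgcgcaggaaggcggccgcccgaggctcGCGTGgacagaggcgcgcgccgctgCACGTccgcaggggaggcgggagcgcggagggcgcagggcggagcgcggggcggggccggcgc
Ankrd37, chr8:45999851-46000100, minus strand: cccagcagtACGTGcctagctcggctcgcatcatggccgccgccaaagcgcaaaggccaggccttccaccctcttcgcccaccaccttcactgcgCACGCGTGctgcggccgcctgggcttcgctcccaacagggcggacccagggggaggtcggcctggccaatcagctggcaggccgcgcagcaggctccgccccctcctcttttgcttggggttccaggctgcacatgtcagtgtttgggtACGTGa
Fam162a, chr16:36071562-36071811, minus strand: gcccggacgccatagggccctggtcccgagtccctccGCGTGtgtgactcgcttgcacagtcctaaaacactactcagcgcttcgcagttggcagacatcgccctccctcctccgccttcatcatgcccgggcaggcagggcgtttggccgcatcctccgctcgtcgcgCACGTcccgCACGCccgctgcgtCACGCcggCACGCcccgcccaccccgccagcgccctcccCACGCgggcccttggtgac
A match is a description of letters and not a bound site.

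The deposited values are log2 expression, and the probe set with the highest mean was taken for each gene. Each array's value is given first, then the log2 difference ± moderated standard error from a limma fit of all 8 arrays; a gene passed where its limma adjusted p was under 0.05. With the inhibitor 8 of the 10 genes passed (41.5% of all genes), 7 higher (19.2%) and 1 lower (22.3%). In released against MYCi arrays 7 passed (41.9%), 2 higher (22.7%) and 5 lower (19.2%). In released against DMSO arrays 6 passed (8.66%), 6 higher (4.66%) and 0 lower (4.01%). Nothing is read from these counts, since the contrasts were known when the genes were listed. The median difference of the 10 genes was 0.58, -0.25 and 0.30 in the 3 comparisons, against -0.058, 0.061 and 0.0018 over all genes. In bulk RNA fewer cells of a type and less RNA per cell cannot be told apart.

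**Figure D1:**
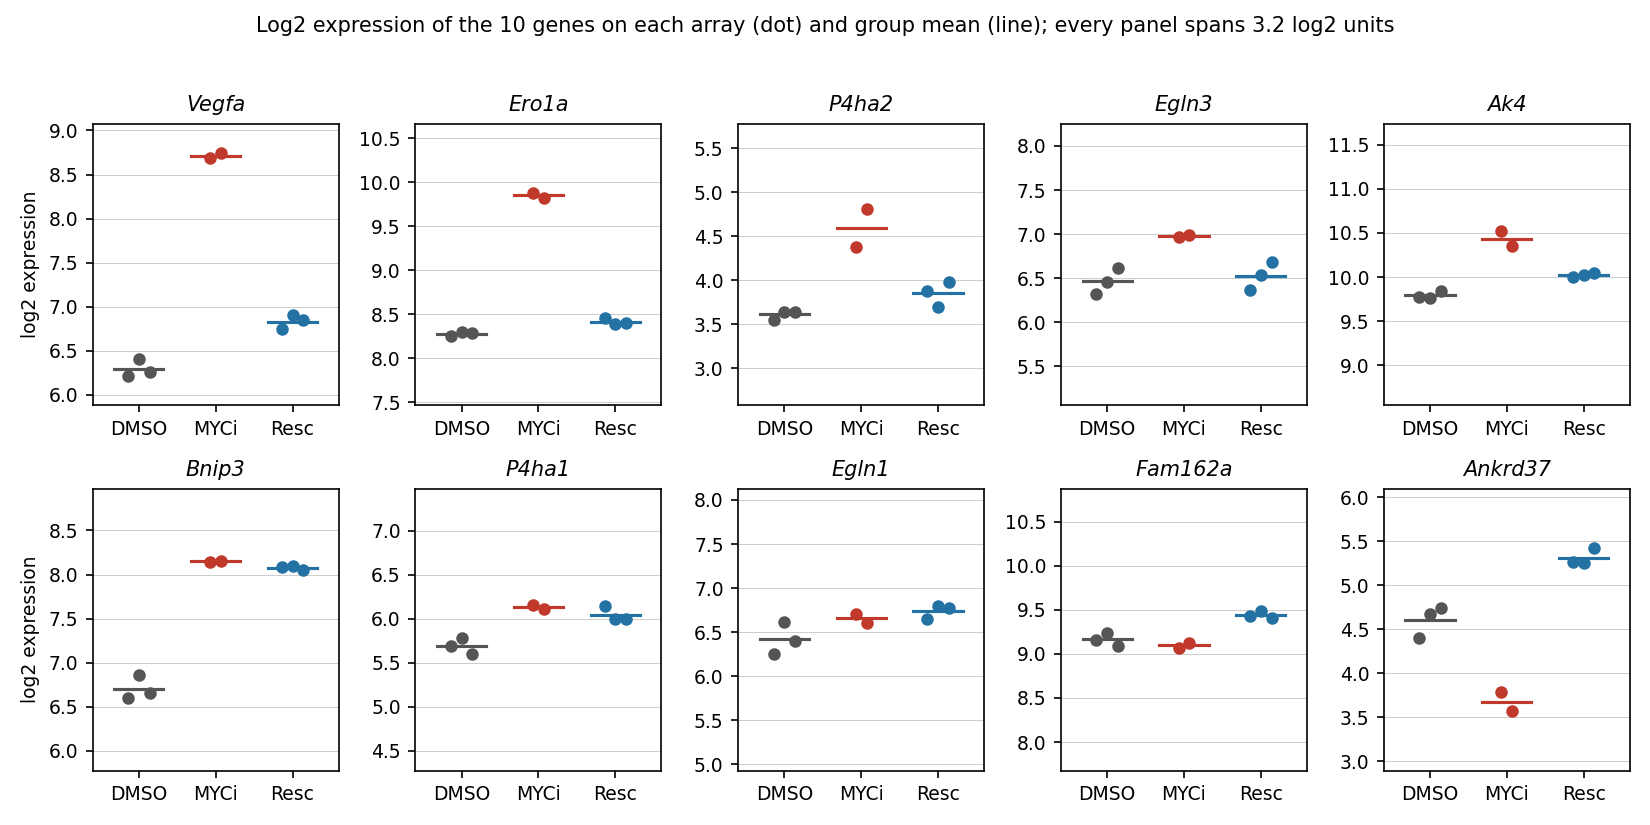
Log2 expression of the 10 genes on each of the 8 arrays (dots) with group means (lines), in panels of equal height with separate axes. Vegfa and Ero1a stood highest in MYCi, Bnip3 and P4ha1 stood high in MYCi and in released cells (Resc), and Ankrd37 was lowest in MYCi and highest in released cells.

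Vegfa, the secreted growth factor of blood vessels and the ligand of the group, had the largest difference with the inhibitor. Its values were 6.21, 6.40 and 6.26 with DMSO, 8.69 and 8.74 with the inhibitor, and 6.74, 6.90 and 6.85 after withdrawal. The 3 groups did not overlap. Vegfa was 5.36-fold higher with the inhibitor (2.42 ± 0.078), fell by 1.89 ± 0.078 on withdrawal, and remained 1.45-fold above DMSO in released cells (0.54 ± 0.070). Its dimmer probe set gave the same order of means with smaller steps, 0.88 ± 0.11 for MYCi and 0.16 ± 0.096 for released cells against DMSO. On that probe set the latter did not pass, and released replicate 1 (5.89) lay under DMSO replicate 3 (5.92).

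The oxygen sensors of the group moved less. Egln3, the prolyl hydroxylase PHD3, read 6.32, 6.45 and 6.61 with DMSO, 6.97 and 6.99 with the inhibitor, and 6.36, 6.54 and 6.68 after withdrawal. The inhibitor arrays lay above all others, and DMSO and released arrays overlapped. Its difference from DMSO was 0.51 ± 0.11 with the inhibitor and 0.063 ± 0.094 in released cells (95% interval -0.15 to 0.27). The dimmer probe set of Egln3 gave 0.45 ± 0.098 and -0.093 ± 0.088.

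Egln1, the prolyl hydroxylase PHD2 and the main oxygen sensor of most cells, read 6.25, 6.61 and 6.39 with DMSO, 6.70 and 6.61 with the inhibitor, and 6.65, 6.80 and 6.77 after withdrawal. DMSO replicate 2 lay level with the lower inhibitor array, and every released array lay above every DMSO array. Egln1 differed from DMSO by 0.24 ± 0.10 in MYCi and by 0.32 ± 0.090 in released cells, neither past the threshold. Its dimmer probe set gave 0.18 ± 0.091 and 0.30 ± 0.082. Both differences passed without DMSO replicate 2 (0.33 and 0.42), with the mean of both probe sets (0.21 and 0.31) and with a variance trend and robust fitting. The difference in released cells also passed without low-level genes, with median centring (0.31) and with repeated quantile normalization (0.31).

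Among the mitochondrial members, Bnip3, a receptor on the outer membrane that recruits the autophagy machinery, was high with the inhibitor and after withdrawal. It read 6.59, 6.85 and 6.65 with DMSO, 8.14 and 8.15 with the inhibitor, and 8.08, 8.10 and 8.05 after withdrawal. All inhibitor and released arrays stood far above the DMSO arrays, and released arrays lay just under the inhibitor arrays without overlap. Bnip3 was 2.73-fold higher with the inhibitor (1.45 ± 0.081) and 2.60-fold higher in released cells (1.38 ± 0.072). Released and MYCi cells differed by -0.070 ± 0.081 (95% interval -0.25 to 0.11). Bnip3 has 1 probe set, so no second one can be set beside it.

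Ak4, a nucleotide kinase of the mitochondrial matrix, read 9.77, 9.76 and 9.84 with DMSO, 10.52 and 10.35 with the inhibitor, and 10.00, 10.02 and 10.05 after withdrawal. The groups did not overlap, and released cells lay between the others. Ak4 was 1.56-fold higher with the inhibitor (0.65 ± 0.070). Its difference of 0.23 ± 0.063 in released cells passed narrowly and did not pass without DMSO replicate 1 (0.22), 2 (0.22) or 3 (0.26) or without released replicate 1 (0.24), 2 (0.23) or 3 (0.22). With the mean of its 5 probe sets the fall on withdrawal also lost its call (-0.15 against -0.41). The second brightest probe set gave 0.59 ± 0.091 with the inhibitor, and the other 3 gave -0.15, 0.062 and 0.11, the last at the level of the bacterial controls. The probe set used is of a type that can match transcripts of more than 1 gene.

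Fam162a, a mitochondrial protein linked to cell death in low oxygen, read 9.16, 9.24 and 9.09 with DMSO, 9.06 and 9.13 with the inhibitor, and 9.43, 9.49 and 9.41 after withdrawal. DMSO and inhibitor arrays overlapped, and released arrays lay above both. It differed from DMSO by -0.068 ± 0.067 in MYCi (95% interval -0.22 to 0.082) and by 0.28 ± 0.060 in released cells. The latter did not pass without DMSO replicate 1 (0.28), DMSO replicate 3 (0.24), released replicate 1 (0.29) or released replicate 2 (0.26). The dimmer probe set was higher in both, by 0.33 ± 0.087 and 0.35 ± 0.078, so the probe sets disagree for the inhibitor.

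Ero1a, the oxidase of the endoplasmic reticulum that feeds disulphide bonds into new proteins, came back nearly to its DMSO level. It read 8.25, 8.29 and 8.29 with DMSO, 9.88 and 9.82 with the inhibitor, and 8.45, 8.39 and 8.40 after withdrawal. The inhibitor arrays stood clear of both other groups, and released arrays lay just above DMSO arrays. Ero1a was 2.97-fold higher with the inhibitor (1.57 ± 0.060), fell by 1.43 ± 0.060 on withdrawal, and differed from DMSO by 0.14 ± 0.053 in released cells, which did not pass. Its other 2 probe sets gave 1.46 and 1.24 with the inhibitor and 0.018 and -0.028 in released cells.

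P4ha2 and P4ha1 encode alternative catalytic subunits of collagen prolyl 4-hydroxylase, which uses oxygen and stabilises the collagen triple helix. P4ha2 read 3.55, 3.64 and 3.64 with DMSO, 4.38 and 4.80 with the inhibitor, and 3.88, 3.70 and 3.98 after withdrawal. The groups did not overlap, and the inhibitor arrays lay furthest apart. P4ha2 was 1.97-fold higher with the inhibitor (0.98 ± 0.12) and fell by 0.74 ± 0.12 on withdrawal. Released cells differed from DMSO by 0.24 ± 0.11 (95% interval -0.0083 to 0.48), which did not pass. Its DMSO level is not far above bacterial Trpn control probe sets (2.15 to 2.95), where array differences are compressed.

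P4ha1 took another course. It read 5.69, 5.79 and 5.60 with DMSO, 6.15 and 6.11 with the inhibitor, and 6.14, 5.99 and 6.00 after withdrawal. Inhibitor and released arrays overlapped, and all lay above the DMSO arrays. P4ha1 was 0.44 ± 0.078 above DMSO in MYCi and 0.35 ± 0.069 in released cells, and these differed from each other by -0.087 ± 0.078 (95% interval -0.26 to 0.087). Its dimmer probe set gave 0.76 ± 0.13 and 0.59 ± 0.12 against DMSO.

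Ankrd37, an ankyrin repeat protein encoded by a known HIF-1 target, was the 1 gene that was lower with the inhibitor. It read 4.40, 4.67 and 4.74 with DMSO, 3.78 and 3.57 with the inhibitor, and 5.26, 5.25 and 5.42 after withdrawal. No groups overlapped, and released arrays were the highest. Ankrd37 fell by 0.93 ± 0.11 with the inhibitor, then rose 3.11-fold (1.64 ± 0.11) to 1.64-fold above DMSO (0.71 ± 0.10). It has 1 probe set, and its inhibitor values lie near those of the controls.

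**Figure D2:**
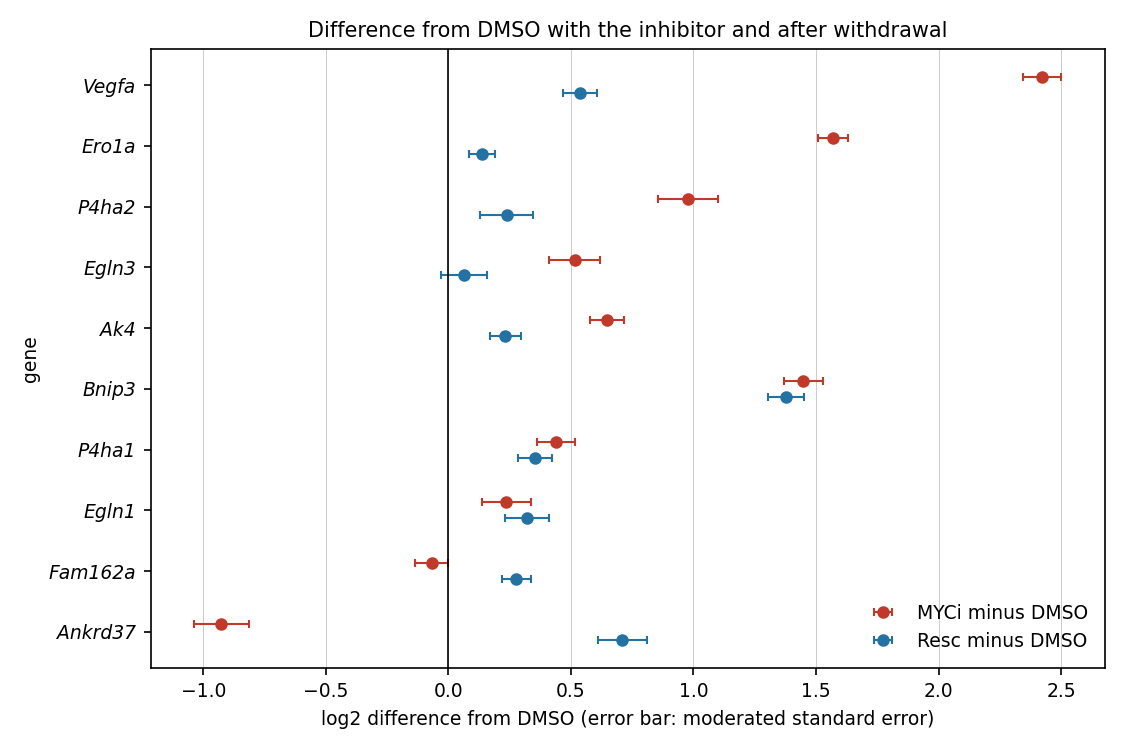
Log2 difference from DMSO of the 10 genes in MYCi cells (red) and released cells (Resc, blue), with moderated standard errors as bars; both share the same 3 DMSO arrays. Ankrd37 lies at -0.93 and 0.71, Bnip3 at 1.45 and 1.38, and Vegfa at 2.42 and 0.54.

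MYCi and DMSO arrays did not overlap for 8 of the 10 genes (60.5% of all genes), 7 of them higher (25.5%) and 1 lower (35%). Released and MYCi arrays did not overlap for 8 (61.9%), 2 higher (36.2%) and 6 lower (25.7%). Released and DMSO arrays did not overlap for 9 (28.6%), all 9 higher (14.6%), with Egln3 the exception. These 9 differences ran from 0.14 for Ero1a to 1.38 for Bnip3. Fitted as separate features, 14 of the 21 probe sets were higher and 1 lower with the inhibitor, where 37.3% of all 34945 single-symbol probe sets passed. In released against DMSO arrays 7 were higher and 0 lower (6.63% of all passed). No gene had probe sets that passed in opposite directions.

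**Figure D3:**
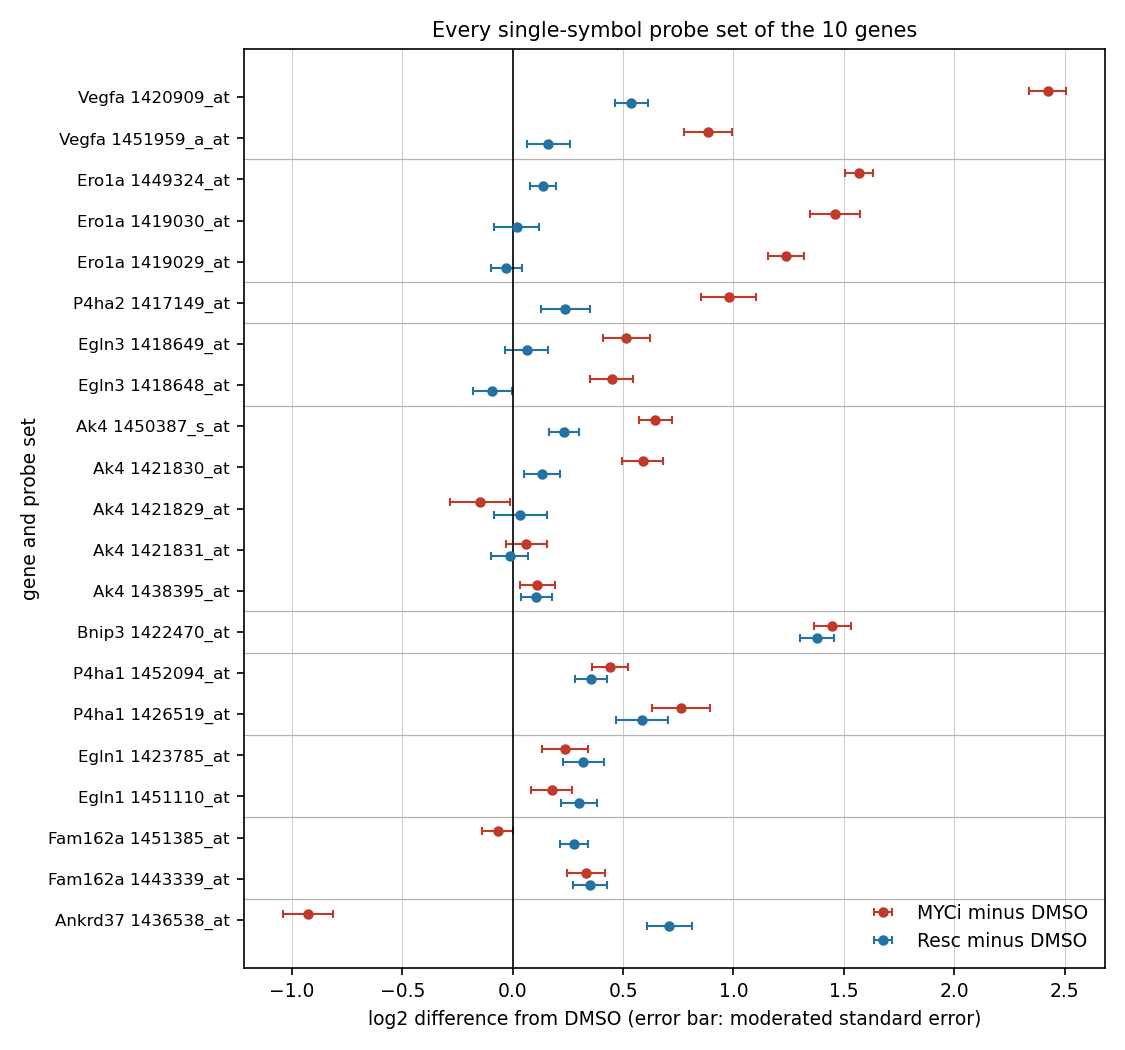
Log2 difference from DMSO of each of the 21 probe sets in MYCi cells (red) and released cells (Resc, blue), with moderated standard errors as bars, ordered by level within a gene. The 3 Ero1a probe sets lie close together, those of Vegfa differ in size (2.42 and 0.88), and 3 of the 5 Ak4 probe sets lie near 0.

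Of 16 further genes of the oxygen-sensing machinery, 6 rose and 2 fell with the inhibitor (19.2% and 22.3% of all genes), with a median of 0.095. The 8 that passed became 4 without MYCi replicate 1 and 5 without MYCi replicate 2. With each array centred on its median 3 rose and 3 fell, where the split over all genes went from 3497 higher and 4060 lower to 3169 higher and 5138 lower. Hif1a, which encodes the HIF-1 alpha subunit, read 10.35, 10.48 and 10.45 with DMSO, 11.01 and 11.12 with the inhibitor, and 10.33, 10.45 and 10.37 after withdrawal. It stood high in MYCi alone, by 0.64 ± 0.071, and released cells differed from DMSO by -0.045 ± 0.064 (limma adjusted p = 0.728). Hif1a was among the 4 genes of this list with the smallest p for MYCi against DMSO, so that p is not given. Its 4 probe sets ran from 0.035 to 0.64 for the inhibitor. Epas1, which encodes HIF-2 alpha, rose by 0.21 ± 0.061 with the inhibitor (limma adjusted p = 0.0216) and was 0.35 ± 0.055 above DMSO in released cells (limma adjusted p = 0.00402). The first call ended without MYCi replicate 1 (0.22) or 2 (0.19), with median centring (0.16) and with the mean of its probe sets (0.0025).

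The HIF partner Arnt (0.15 ± 0.067), Vhl (0.019 ± 0.063), the prolyl hydroxylase gene Egln2 (-0.018 ± 0.082) and the asparaginyl hydroxylase gene Hif1an (-0.0066 ± 0.066) did not pass with the inhibitor. The sign of each changed under another setting. Probe sets of Hif1an ran from -0.51 to -0.0066, and their mean (-0.22) passed. Those of Arnt ran from -0.19 to 0.15 and those of Vhl from -0.21 to 0.019. Siah2, a ubiquitin ligase that acts on prolyl hydroxylases, rose by 0.50 ± 0.079 and was 0.55 ± 0.071 above DMSO in released cells (limma adjusted p = 0.00141); the mean of its probe sets gave 0.79 and 0.83. The coactivator Crebbp rose by 0.54 ± 0.063, with probe sets from -0.20 to 0.54 and a mean over them of 0.22. Elob, which links VHL to its ligase complex, fell by 0.49 ± 0.071.

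Of 31 measured low-oxygen targets outside glycolysis and outside the 10 genes, 14 rose and 6 fell with the inhibitor (19.2% and 22.3% of all genes), with a median of 0.048. Ddit4, which restrains mTORC1, rose 3.71-fold (1.89 ± 0.080). Ndrg1, a stress-response gene, rose 3.58-fold (1.84 ± 0.074). Igfbp3, a binding protein of insulin-like growth factors, rose by 1.33 ± 0.10. These genes and Cited2, described below, were named as the 4 of this list with the smallest p in this comparison. Their small p was thus fixed by the choice and is not given. After withdrawal Ndrg1 differed from DMSO by 0.090 ± 0.066, which did not pass, and Ddit4 was lower (-0.37 ± 0.071; limma adjusted p = 0.0112). Igfbp3 was also lower than DMSO then (-0.40 ± 0.089; limma adjusted p = 0.0226), a call that ended without DMSO replicate 1 (-0.36) or 3 (-0.40) or released replicate 1 (-0.34) or 2 (-0.37). Among the 6 that fell with the inhibitor, the largest differences were those of Tmem45a (-1.11 ± 0.10), Angptl4 (-0.78 ± 0.063) and Tfrc (-0.76 ± 0.067), chosen after their values were seen. Angptl4 encodes a secreted inhibitor of lipoprotein lipase and Tfrc the transferrin receptor. The mean of the Angptl4 probe sets gave -0.44.

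Cited2, which competes with HIF-1 alpha for its coactivators, read 8.38, 8.47 and 8.33 with DMSO, 9.78 and 9.80 with the inhibitor, and 9.19, 9.34 and 9.28 after withdrawal. Its groups did not overlap. It rose by 1.40 ± 0.071 and was still 1.83-fold above DMSO in released cells (0.87 ± 0.063; limma adjusted p = 5.68e-05). Of the 31 genes, 3 were higher and 4 lower in released cells (4.66% and 4.01% of all genes); the 7 became 11 with a variance trend and robust fitting and 4 at an adjusted p under 0.01.

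Of 17 measured glycolytic targets of HIF, 5 rose and 7 fell with the inhibitor (19.2% and 22.3% of all genes), with a median of -0.064. In released cells 9 were higher and 1 lower than DMSO (4.66% and 4.01% of all genes), with a median of 0.36. Ldha, lactate dehydrogenase A, read 9.65, 9.74 and 9.63 with DMSO, 8.84 and 8.79 with the inhibitor, and 11.14, 11.11 and 11.10 after withdrawal. Like Ankrd37 it was lowest in MYCi and highest in released cells, 2.72-fold above DMSO (1.44 ± 0.056; limma adjusted p = 5.33e-06). Pdk1, an inhibitory kinase of pyruvate dehydrogenase, fell by 1.30 ± 0.072 and was then 0.35 ± 0.064 above DMSO; its probe sets for the inhibitor ran from -1.30 to 0.20. Tpi1, triosephosphate isomerase, fell by 0.92 ± 0.061 and was then 0.37 ± 0.054 above DMSO. Pfkp, a phosphofructokinase, rose by 0.78 ± 0.071 and remained 0.57 ± 0.064 above DMSO; its probe sets for the inhibitor ran from 0.10 to 0.78, with a mean of 0.50.

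**Figure D4:**
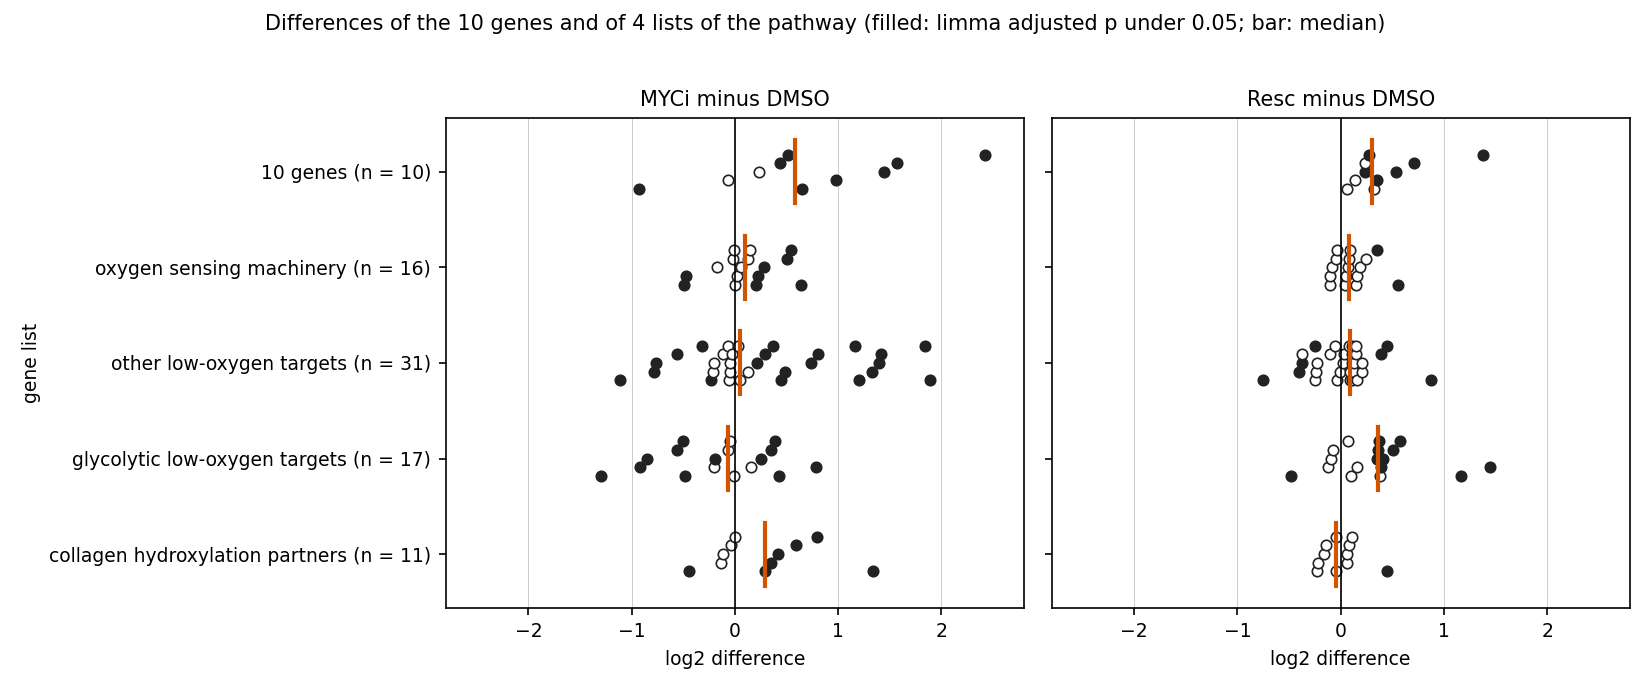
Log2 differences of the 10 genes and of 4 pathway lists, MYCi minus DMSO (left) and released (Resc) minus DMSO (right); each dot is a gene, filled dots have a limma adjusted p under 0.05, and orange bars are medians. The median of the 10 genes lies at 0.58 and 0.30, that of the glycolytic targets at -0.064 and 0.36. The 10 genes were listed with these differences known, so nothing is read from their median beside the others.

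Partners of single members were followed for the inhibitor against DMSO, where 19.2% of all genes rose and 22.3% fell. Of 11 collagen hydroxylation partners 6 rose and 1 fell, with a median of 0.29. P4hb, the subunit that completes the enzyme of P4ha1 and P4ha2, rose by 0.42 ± 0.061, and the collagen chaperone Serpinh1 rose by 1.34 ± 0.080. P3h4 rose by 0.79 ± 0.10 and the lysyl hydroxylase gene Plod3 by 0.59 ± 0.076. In released cells P4hb (0.085 ± 0.055) and Serpinh1 (0.11 ± 0.071) did not pass, as P4ha2 did not.

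Of 8 partners of oxidative folding, which again include P4hb, 1 rose and 3 fell, with a median of -0.10. The Ero1a paralog Ero1b differed by 0.11 ± 0.078, which did not pass. The peroxidase genes Gpx7 and Prdx4 fell by 0.98 ± 0.064 and 0.53 ± 0.087, and the disulphide isomerase gene Pdia6 fell by 0.35 ± 0.075. Probe sets of Prdx4 ran from -0.53 to -0.18 and those of Pdia6 from -0.35 to -0.041, with a mean for Pdia6 of -0.20.

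Of 9 other VEGF ligands and receptors 2 rose and 2 fell, with a median of 0.019. The ligand gene Vegfd rose by 1.31 ± 0.12 and the co-receptor gene Nrp2 by 1.00 ± 0.14, with Nrp2 probe sets from 0.13 to 1.00. Vegfb fell by 0.70 ± 0.074 and Pgf by 0.26 ± 0.087. The call of Pgf ended without MYCi replicate 2 (-0.13), DMSO replicate 2 (-0.26), DMSO replicate 3 (-0.22) or released replicate 2 (-0.26).

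Of 5 measured paralogs of Ak4, Ak3 (0.88 ± 0.13) and Ak8 (0.39 ± 0.095) rose, and Ak7 (-0.44 ± 0.079) and Ak1 (-0.39 ± 0.074) fell, with a median of -0.16. Probe sets of Ak3 ran from 0.017 to 0.88, with a mean of 0.53. Ak8 did not pass without MYCi replicate 2 (0.38), and Ak1 did not with the mean of its probe sets (-0.090). Of 4 measured mitophagy genes beside Bnip3, Pink1 rose by 0.72 ± 0.059, Fundc1 fell by 0.68 ± 0.068 and Fkbp8 by 0.24 ± 0.070, with a median of -0.15. Bcl2l13 differed by -0.053 ± 0.078, which did not pass. The call of Fkbp8 ended without MYCi replicate 2 (-0.18), DMSO replicate 1 (-0.22) or DMSO replicate 3 (-0.23). The Bnip3 paralog Bnip3l is covered by probe sets of several symbols and was not analysed here.

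The genes most like Vegfa over the 8 arrays, by root mean square difference of log2 values centred on DMSO, were Slc40a1 (0.10), Abca1 (0.14), Lgals3 (0.14), Plk2 (0.15) and Vldlr (0.15). With the inhibitor these genes lay 2.32 to 2.67 above DMSO, where Vegfa lay 2.42 above it. This closeness follows from how they were chosen. With the mean of each gene's probe sets Abca1 lay 1.11, Vldlr 1.22 and Plk2 1.22 above DMSO, Lgals3 2.56, Slc40a1 between these values, and Vegfa 1.65.

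The 6 ESC markers Pou5f1, Sox2, Nanog, Esrrb, Zfp42 and Klf4 had a mean log2 level of 11.08 to 11.11 with DMSO, 11.31 to 11.34 with the inhibitor and 11.12 to 11.14 after withdrawal. With the inhibitor Zfp42 (0.69), Klf4 (0.46) and Esrrb (0.20) rose, while Sox2 (0.12), Pou5f1 (-0.044) and Nanog (-0.097) did not pass. Lists of fibroblast, endoderm, mesoderm (4 of 5 measured) and neural markers had none that rose with the inhibitor. The fibroblast marker Thy1, the endoderm marker Foxa2, the mesoderm marker Mixl1 and the neural markers Sox1, Neurod1 and Tubb3 fell, Tubb3 the most (-1.39). Sox1 and Tubb3 were lower than DMSO in released cells. Of 5 trophectoderm markers 3 rose with the inhibitor, Krt18 (31.9-fold), Krt8 (9.43-fold) and Gata3 (2.43-fold), while Cdx2 and Elf5 did not pass. Gata3 started from 2.52 with DMSO, inside the range of the bacterial Trpn controls (2.15 to 2.95). In released cells only Krt18 of these markers was higher than DMSO past the threshold, by 3.00-fold. The mean of the 5 was 4.29 to 4.37 with DMSO, 6.12 to 6.29 with the inhibitor and 4.77 to 4.80 after withdrawal, and its part in the differences of Vegfa, Ero1a and the other genes was not tested. The 3′ minus 5′ difference of Gapdh control probe sets, which reflects RNA integrity, was -0.15 and -0.22 on the MYCi arrays and -0.13 to -0.11 on the other 6. That of Actb was 0.25 and 0.29 on the MYCi arrays and 0.25 to 0.28 on the other 6. The part of both was not tested.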

How the data were processed

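Samples were grouped by their titles. The authors deposited 1 table of log2 values for the 8 arrays; RMA, oligo (1.32.0) and limma (3.2.15) are listed in the submitters' processing notes. The values run from 1.69 to 13.8, the range of a log2 scale. RMA equalises the arrays' distributions, so levels are relative. Of 45101 probe sets, 34945 have a single symbol in the platform annotation, 932 have several and 9160 have none, and 64 are controls. A RefSeq list (GRCm38.p6) held the gene number of 34741 of them and changed 0 symbols.

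Differences were fitted with limma 3.58.1 in R 4.3.3 (1 mean per group, eBayes, 5 residual degrees of freedom, two-sided), with Benjamini-Hochberg adjustment over 18193 genes. Second probe sets were fitted among all single-symbol probe sets. The fit was run on simulated data with far fewer changed genes than passed here, which checks the code and not these results. Arrays have no read depth, so their number limits the precision. The 10 genes, the 8 pathway lists, the markers and the rule for named genes were chosen with earlier results of these data known. The rule names, per list, the 4 smallest p for MYCi against DMSO, 11 fixed genes, and the 5 genes most like the member with the largest difference; further markers, Tmem45a, Angptl4 and Tfrc were named after their values were seen. P4hb, Plod1, Plod2 and Bnip3l each stand in 2 lists, and 9 listed genes were not analysed here. The 17 alternatives cover probe sets, low values, normalization, variance model, threshold, the replicate block and each array left out. Promoters and drawings used Python 3.11.15, pandas 2.3.3 and matplotlib 3.10.9.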

Additional observations from a re-analysis of the deposited data

How the results depend on the processing

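Under 17 alternatives, 477 of 507 recomputed differences of the 10 genes kept their direction and side of the threshold, 17 no longer passed, 9 newly passed and 4 changed sign. Several alternatives leave the difference itself unchanged, so only the call could move. Examples are the stricter threshold, the variance model and leaving out an array of the group not compared. P4ha2 has no value without low-level genes, where it was left out. Fam162a turned to 0.13 for MYCi against DMSO with the mean of its probe sets. Egln3 turned to -0.015 for released against DMSO with that mean, and ran from -0.013 to 0.14 with 1 array left out, below 0 without DMSO replicate 1 (-0.0069) or released replicate 3. Leaving out 1 array gave 8 to 9 genes past the threshold for MYCi against DMSO, 7 for released against MYCi, and 4 to 6 for released against DMSO. The last count was 4 without DMSO replicate 1 or 3 or released replicate 1 or 2, and 3 at an adjusted p under 0.01. Same-numbered arrays did not deviate together (correlations of -0.056 to 0.014). Deviations from the mean of 2 or 3 arrays are bound to each other, so this cannot exclude that the numbers pair the samples. The replicate block gave 8, 7 and 5 genes. Among 45 other named genes, 944 of 985 values kept sign and call. Signs near 0 changed for MYCi against DMSO: Arnt (-0.046) and Vhl (-0.096) with the mean of probe sets, Vhl with median centring (-0.029) and repeated quantile normalization (-0.00029), and Egln2 (0.0047) and Hif1an (0.011) with the block. With 1 array left out Vhl ran from -0.0055 to 0.047, Egln2 from -0.14 to 0.11, Hif1an from -0.039 to 0.026 and Bcl2l13 from -0.13 to 0.029. Hif1an passed with the mean of its probe sets (-0.22). Of 408 list counts 42 moved by over 1.5 times. Over all genes, the 1576 that passed for released against DMSO became 2641 with a variance trend and robust fitting, 657 at the stricter threshold, 1008 without released replicate 1 and 1000 without released replicate 2. The cause was not tested.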
